A study of Arabidopsis thaliana with 11 samples.

Results

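The genes JAZ1 to JAZ10 of Arabidopsis thaliana, which encode jasmonate ZIM-domain repressors, were followed through an induced burst of the stomatal regulator SPEECHLESS (SPCH). They were taken by locus identifier, in the order JAZ1 to JAZ10 AT1G19180, AT1G74950, AT3G17860, AT1G48500, AT1G17380, AT1G72450, AT2G34600, AT1G30135, AT1G70700 and AT5G13220, and are 10 of the 33602 genes in the deposited table. In the induced seedlings JAZ10 and JAZ2 transcripts were higher than in the controls at both times of treatment. JAZ4 and JAZ9 transcripts were lower than in the controls at the later time. JAZ2 and JAZ3 transcripts were higher than before treatment in both lines, in comparisons in which 29.3% to 34.8% of all tested genes were higher.

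JAZ proteins hold back the jasmonate response by binding MYC2 and related basic helix-loop-helix factors and, directly or through the adaptor NINJA, the co-repressor TOPLESS. Jasmonoyl-isoleucine, the active hormone, bridges a JAZ protein to the F-box receptor COI1, upon which the JAZ protein is marked for degradation and MYC factors are released. Many JAZ genes are themselves MYC targets, so that their transcripts commonly rise in the first hours after wounding, touch or hormone. By sequence the family is grouped into JAZ1, JAZ2, JAZ5 and JAZ6, into JAZ3, JAZ4 and JAZ9, into JAZ7 and JAZ8, which lack the usual degradation signal, and JAZ10. Of those with known links to stomata or to SPCH partners, JAZ2 is expressed in guard cells, where it acts in the closure response to bacterial coronatine, and JAZ1 and JAZ4 bind ICE1, also called SCREAM, a dimerisation partner of SPCH.

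Polyadenylated RNA of whole 4-day-old seedlings grown in light was sequenced in 11 libraries. The iSPCH line, genotype ESTpro:SPCH1-4A-YFP, expresses from an estradiol-inducible promoter a SPCH variant with phosphorylation sites changed, tagged with YFP. It was sampled untreated (called 0 h) and after 6 h and 8 h in 10 uM beta-estradiol, with 2 libraries a time. Col wild type (WT), which has no construct, was sampled the same way, with 1 library untreated and 2 each at 6 h and 8 h. WT received estradiol too, so differences between the lines at 6 h and 8 h are set against the same incubation, whereas estradiol, handling, time of day and age cannot be told apart in any change from 0 h. In whole seedlings, fewer cells of a type and less RNA per cell cannot be told apart either. The labels do not say that the libraries of a group came from separate plant batches, so p-values measure the spread between these libraries, which may be technical.

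The authors deposited 1 normalised mean per gene and group. Whole reads of each library were recovered from those means, by solving for whole numbers, for 33457 genes and for all 10 JAZ genes. Within a group the deeper library is written A and the other B, and neither letter stands for a replicate number of the labels. Between 15553670 (iSPCH 6 h B) and 32807092 (WT 0 h) reads per library were assigned to genes. In groups of 2 libraries these totals are in part estimates, since some abundant genes had several solutions. SPCH itself had 37220 and 37520 normalised reads in iSPCH at 6 h and 41640 and 39760 at 8 h, against 103 and 130 in WT at 6 h and 99.5 and 141 at 8 h; reads of the construct and of the native gene share 1 locus and were not told apart. Library iSPCH 6 h B was the shallowest and stood apart on the third principal component (3.40% of variance). All 5 root and all 5 shoot markers were detected at testable levels, and none of the 6 flower, pollen and seed markers was. Genes with at least 1 CPM (reads scaled to a common library total) in at least 2 libraries were tested, 19633 in all, with limma on log2 of the normalised reads plus 1, and a change was called at a Benjamini-Hochberg false discovery rate (FDR) of 0.05 over all tested genes.

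JAZ8 has to be set aside before the rest, because its reads in iSPCH libraries 6 h A and 8 h A cannot be told from reads shared by its neighbours. JAZ8 had 89 and 0 reads in iSPCH libraries A and B at 6 h, 30 and 0 at 8 h and 0 and 1 at 0 h, against 1 and 1 in WT at 6 h, 1 and 0 at 8 h and 0 at 0 h. In both of those A libraries, each of 35 consecutive loci over 174 kb of chromosome 1, from JAZ8 at chr1:10596352-10597341 (TAIR10.1, plus strand) onward, held at least 86 and at least 29 reads. Of these loci, 10 were silent elsewhere, with at most 5 reads in every other library, yet held 86 to 90 reads in iSPCH 6 h A and 29 or 30 in iSPCH 8 h A. A count of 0 allows up to 3 reads. JAZ8 exceeded the lowest count of the stretch by 3 reads and by 1 read. The run of neighbouring loci with at least those counts spanned 86 loci, from 137 kb before to 275 kb after the JAZ8 start, and the nearest silent loci beyond it, AT1G29870 and AT1G30670, had 0 reads in both. Before JAZ8, equal counts were not confined to the A libraries. AT1G29962 and AT1G30060 each held 112 reads in iSPCH 6 h A, 42 in 8 h A, 18 in 6 h B and 7 in 8 h B. Below, the shared reads are those of the 2 A libraries at and after JAZ8. JAZ8 passed the filter on low values in those 2 libraries only, and no comparison called it (log2 2.09 ± 1.92 (SE) for iSPCH minus WT at 6 h, limma adjusted p = 0.642). DESeq2 called it for iSPCH at 6 h and 8 h against 0 h (adjusted p = 0.00394 and 0.0201), and so did limma at 6 h without library 6 h B (adjusted p = 0.00831), calls that rest on the same reads. Around every other member except JAZ3, the lowest count among the 5 loci on each side was at most 7 reads in every library. A stretch that covers only part of these loci would be missed. The lowest neighbour of JAZ3 had 36 to 75 reads in all libraries, so shared reads there cannot be told from expression.

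**Figure D1:**
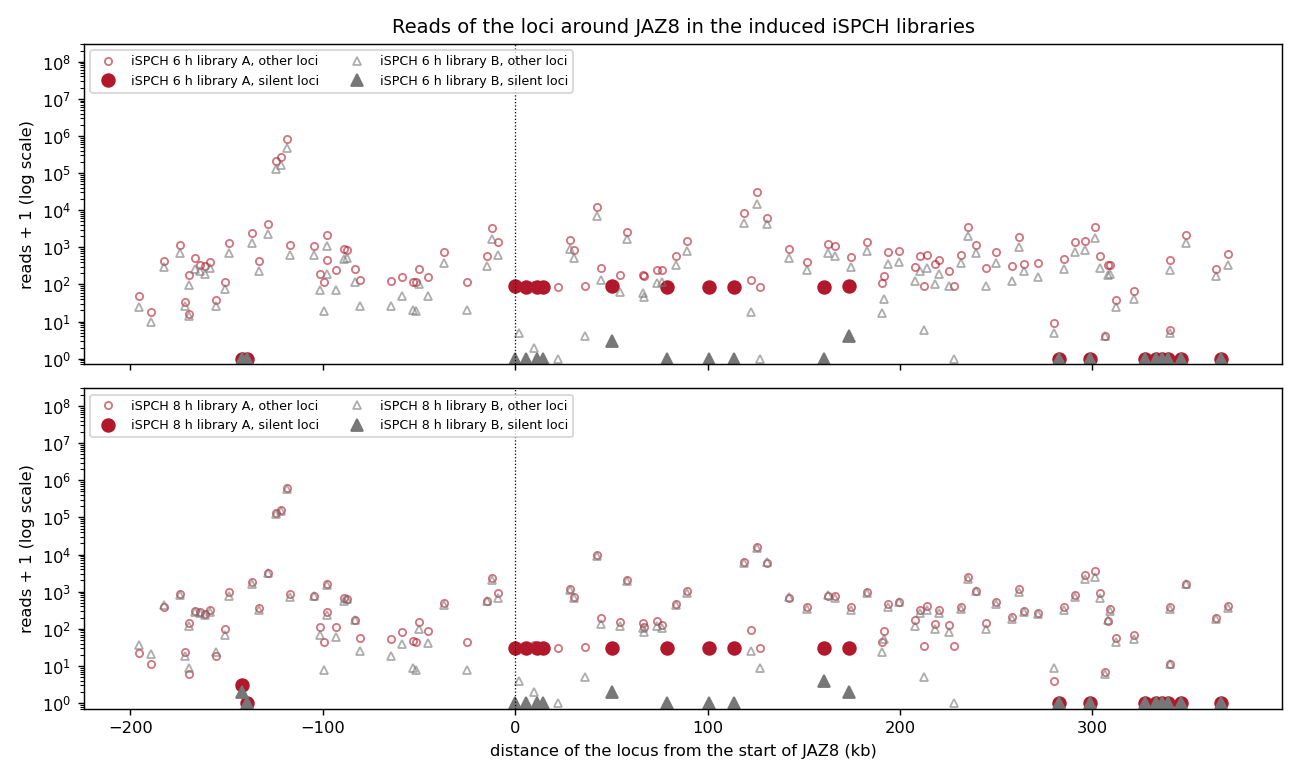
Reads per locus, plus 1 on a log axis, against distance from the JAZ8 start in kb, in the iSPCH libraries at 6 h (top) and 8 h (bottom). Filled symbols are loci with at most 5 reads in every library other than the 2 A libraries; over 174 kb rightward of JAZ8 they lie at 86 to 90 reads (6 h) and 29 to 30 reads (8 h) in library A, and at most 3 reads in library B.

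JAZ5 was at or below the limit of useful counting everywhere. It had 5 to 13 reads per library, 4.36 to 12.6 normalised reads, and was not tested. The remaining 8 members were followed in all comparisons, and counts are given out of the 9 tested, JAZ8 included.

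Before treatment no JAZ gene was called between the lines, against a background of 0.0917% of tested genes. No member reached an unadjusted p under 0.05 in limma either (0 of 9), and edgeR and DESeq2 called 0. At 0 h, with 2 iSPCH libraries against 1 of WT, the lines did not overlap for JAZ1, JAZ2, JAZ3, JAZ4, JAZ6, JAZ9 and JAZ10. With 1 or 2 libraries a group, a lack of overlap is thus only a description. Its share over all genes is not given here. At 6 h, 2 of 9 were called, JAZ10 and JAZ2, both higher in iSPCH, where 4.68% of all tested genes were called and 1.15% were higher. At 8 h, 4 of 9 were called against a background of 10.7%. JAZ10 and JAZ2 were higher (background 4.75%), and JAZ4 and JAZ9 were lower (background 5.90%). The calls went both ways at 8 h: the median log2 difference of the 9 tested was 0.15 at 6 h and -0.05 at 8 h, beside 0.005 and -0.03 over all tested genes.

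**Figure D2:**
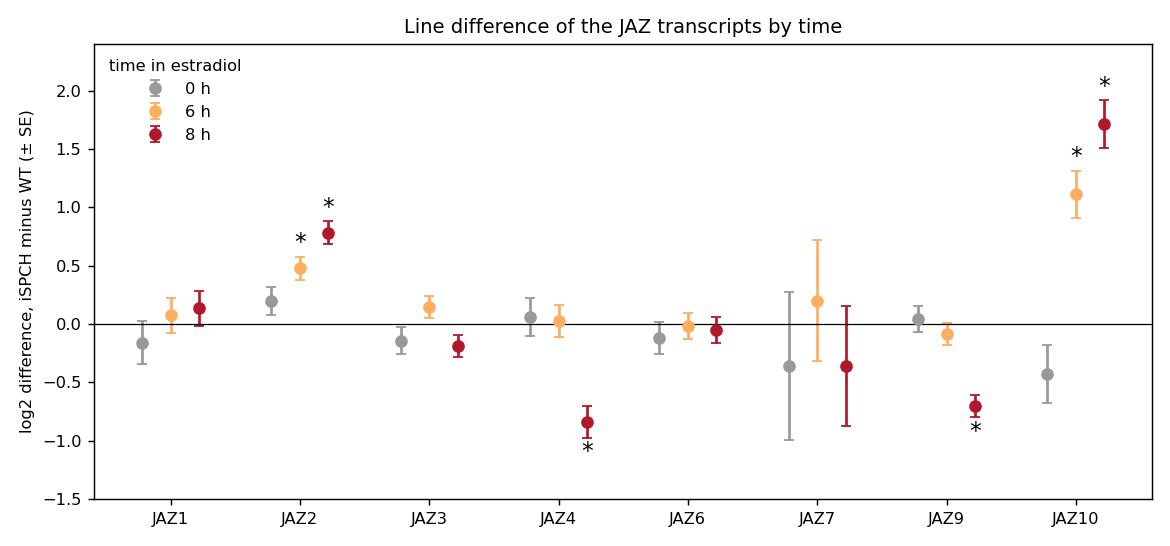
Log2 difference of iSPCH minus WT (points, with SE bars) for 8 JAZ genes at 0, 6 and 8 h; asterisks mark calls at FDR 0.05. JAZ5 was not tested and JAZ8 is left out for its shared reads. JAZ10 reached 1.11 and 1.71 and JAZ2 0.48 and 0.78 at 6 h and 8 h, while JAZ4 and JAZ9 were near 0 until 8 h, when they were at -0.84 and -0.71.

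The 250 bases upstream of the annotated start are shown for JAZ2, JAZ10 and JAZ9, because they moved in opposite directions between the lines, with the G-box, the hexamer CACGTG that MYC factors and other basic helix-loop-helix proteins can bind, in capitals. The sequences are from RefSeq, build TAIR10.1, each 5′ to 3′ on the strand of its gene: JAZ2 at chr1:28150447-28150696 (minus strand), JAZ10 at chr5:4218536-4218785 (plus) and JAZ9 at chr1:26654279-26654528 (plus).
JAZ2: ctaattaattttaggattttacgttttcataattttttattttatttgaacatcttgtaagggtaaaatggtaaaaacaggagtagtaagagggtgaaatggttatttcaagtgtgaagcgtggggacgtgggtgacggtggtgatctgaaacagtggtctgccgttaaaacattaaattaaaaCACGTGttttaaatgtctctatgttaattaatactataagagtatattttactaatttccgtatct
JAZ10: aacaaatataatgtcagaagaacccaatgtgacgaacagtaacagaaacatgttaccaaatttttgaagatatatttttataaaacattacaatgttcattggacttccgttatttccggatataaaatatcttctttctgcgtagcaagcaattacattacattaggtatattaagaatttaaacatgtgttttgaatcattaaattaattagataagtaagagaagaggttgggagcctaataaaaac
JAZ9: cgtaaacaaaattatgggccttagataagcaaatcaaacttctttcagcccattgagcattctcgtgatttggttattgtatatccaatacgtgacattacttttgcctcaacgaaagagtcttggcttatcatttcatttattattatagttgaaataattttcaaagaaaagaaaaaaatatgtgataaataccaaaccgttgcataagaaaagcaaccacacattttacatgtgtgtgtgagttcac
JAZ2 holds 1 G-box, 66 bases before the start, and the windows of JAZ10 and JAZ9 hold none. Elsewhere in the family the hexamer occurs in the windows of JAZ3 (140 and 82 bases before the start), JAZ7 (34 bases) and JAZ8 (10 bases), and 6.49% of 27443 promoter windows of that length hold it. The looser CANNTG, which includes the G-box and, like it, reads the same on both strands, occurs 2 times in JAZ2 and 1 time each in JAZ10 and JAZ9, and is found in 55.3% of all windows. A match is a description of the letters only.

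JAZ10 showed the largest difference between the lines among the 8 members. Its protein is a repressor that damps an ongoing jasmonate response, and its transcript is widely used as a reporter of that response. In iSPCH it had 27.7 and 41.8 normalised reads at 0 h, 105 and 98.0 at 6 h and 189 and 175 at 8 h. In WT it had 46.2 at 0 h, 45.5 and 47.3 at 6 h and 54.1 and 55.5 at 8 h. All 4 treated iSPCH libraries lay above every WT library, and the untreated iSPCH libraries lay below the untreated WT library. The iSPCH level was 2.16 times that of WT at 6 h (log2 1.11 ± 0.20 (SE), limma adjusted p = 0.00569) and 3.28 times at 8 h (log2 1.71 ± 0.20, adjusted p = 6.35e-05). The 6 h call was lost without WT library 6 h A (adjusted p = 0.0685); the 8 h call held under each of the 21 alternatives in which JAZ10 was tested. The locus lies at chr5:4218786-4221077 (TAIR10.1, plus strand), has 7 annotated transcripts with 6 coding variants that the deposited values do not separate, and overlaps an antisense gene, AT5G02045. Strand of the libraries is not stated, so reads of the 2 genes cannot be told apart.

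JAZ2, with JAZ1, JAZ5 and JAZ6 in its group by sequence, moved in the same direction by less. It had 292 and 295 normalised reads in iSPCH at 0 h, 461 and 485 at 6 h and 576 and 647 at 8 h. WT had 257 at 0 h, 351 and 328 at 6 h and 341 and 368 at 8 h. The lines did not overlap at any time, 0 h included, where no difference was called. The iSPCH level was 1.39 times that of WT at 6 h (log2 0.48 ± 0.10, limma adjusted p = 0.0112) and 1.72 times at 8 h (log2 0.78 ± 0.10, adjusted p = 9.84e-05), against 1.14 times at 0 h (adjusted p = 0.738). The 6 h call was lost without iSPCH library 6 h B (adjusted p = 0.0890), without WT library 6 h A (0.0689) or without WT library 6 h B (0.130), whereas the 8 h call was kept in all 22 alternatives.

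Of the other members of that group, JAZ1 and JAZ6 were tested, and neither was called between the lines. JAZ1, a repressor of MYC2, had 185 and 219 normalised reads in iSPCH at 0 h, 221 and 164 at 6 h and 238 and 205 at 8 h. In WT it had 225, then 173 and 188, then 200 and 203. The lines overlapped at 6 h and not at 0 h or 8 h, and no comparison of JAZ1 was called (iSPCH minus WT at 8 h log2 0.13 ± 0.15, adjusted p = 0.667). JAZ6 had 335 and 289 in iSPCH at 0 h, 379 and 345 at 6 h and 396 and 354 at 8 h, and in WT 338, then 346 and 386, then 377 and 399. The lines overlapped at 6 h and at 8 h (8 h log2 -0.05 ± 0.11, adjusted p = 0.849).

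JAZ4 and JAZ9 share a group with JAZ3. JAZ4, which binds ICE1, had 213 and 213 normalised reads in iSPCH at 0 h, 156 and 167 at 6 h and 120 and 107 at 8 h. WT had 204 at 0 h, 143 and 175 at 6 h and 197 and 211 at 8 h. The lines overlapped at 6 h, and at 8 h both iSPCH libraries lay below both WT libraries and below every other library of either line. At 8 h the iSPCH level was 0.559 of that in WT (log2 -0.84 ± 0.14, limma adjusted p = 0.000814), after 1.02 of it at 6 h (adjusted p = 0.952).

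JAZ9 is a repressor of MYC factors that binds NINJA. It had 760 and 787 normalised reads in iSPCH at 0 h, 1208 and 1183 at 6 h and 844 and 730 at 8 h. WT had 750 at 0 h, 1262 and 1272 at 6 h and 1184 and 1387 at 8 h. Both lines were high at 6 h, and at 8 h WT was still high while iSPCH was near the untreated libraries of both lines, at 750 to 787. At 8 h the iSPCH level was 0.613 of that in WT (log2 -0.71 ± 0.09, adjusted p = 0.000153), after 0.944 of it at 6 h (adjusted p = 0.708). The 8 h calls of JAZ4 and JAZ9 were kept in all 22 alternatives.

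JAZ3, encoded at the locus where the dominant jasmonate-insensitive mutation jai3 was found, had 258 and 278 normalised reads in iSPCH at 0 h, 496 and 538 at 6 h and 432 and 437 at 8 h. WT had 296 at 0 h, 476 and 458 at 6 h and 512 and 482 at 8 h. The iSPCH libraries were below WT at 0 h, above it at 6 h and below it at 8 h. Neither of the later differences passed the test (log2 0.15 ± 0.09, limma adjusted p = 0.451, and -0.19 ± 0.09, adjusted p = 0.231).

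**Figure D3:**
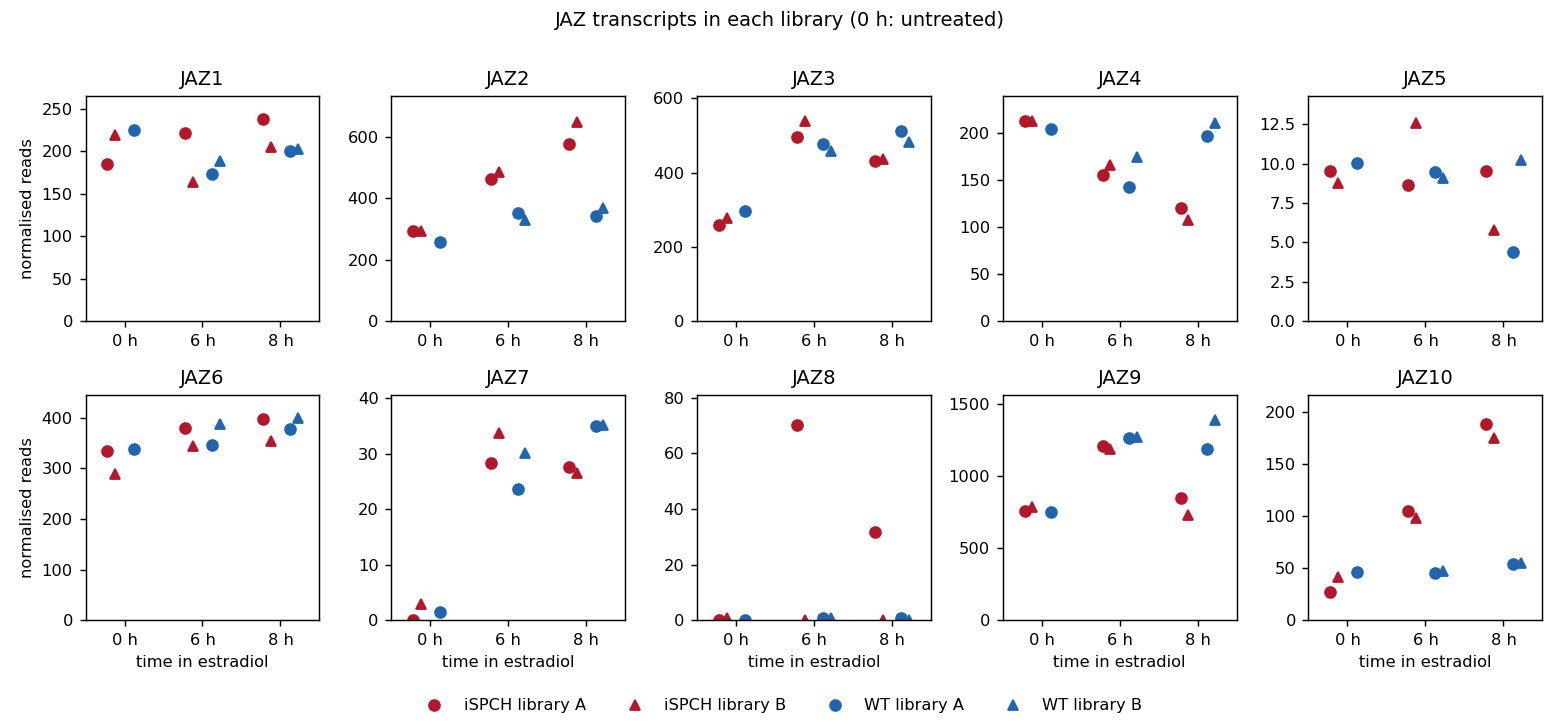
Normalised reads of each JAZ gene in each library, iSPCH (red) left of WT (blue) at 0, 6 and 8 h; circles are library A and triangles library B. JAZ10 reached 175 to 189 in iSPCH at 8 h against 54.1 to 55.5 in WT, JAZ9 was at 730 to 844 in iSPCH against 1184 to 1387 in WT, and the JAZ8 points above 30 are both of library A.

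Against the untreated seedlings, JAZ2 and JAZ3 rose in both lines at both times, in comparisons in which most tested genes of the genome were called. In iSPCH 6 of 9 members were called at 6 h, 5 higher and 1 lower (background 65.0%, of which 33.2% higher and 31.9% lower), and 6 of 9 at 8 h, again 5 higher and 1 lower (background 68.3%, 34.8% higher and 33.5% lower). In WT 4 of 9 were called at 6 h (background 57.1%, 29.3% higher) and 4 of 9 at 8 h (background 61.1%, 31.2% higher), all 4 higher at both times. The counts of the 2 lines were not compared by a test. The median log2 change of the 9 tested was 0.69 and 0.70 in iSPCH at 6 h and 8 h, and 0.40 and 0.45 in WT, beside 0.02 and 0.02 in iSPCH and -0.002 and -0.001 in WT over all tested genes. JAZ7 and JAZ8 passed the filter only through treated libraries and are part of these medians, and JAZ7 is 1 of the higher members in all 4 counts, so the counts are a description.

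JAZ2 was 1.61 and 2.08 times its 0 h level in iSPCH at 6 h and 8 h (adjusted p = 1.87e-05 and 1.65e-07), and 1.32 and 1.38 times in WT (adjusted p = 0.00993 and 0.00348). The WT call at 6 h was lost with DESeq2 (adjusted p = 0.0514) and without WT library 6 h A (0.0597). JAZ3 was 1.93 and 1.62 times its 0 h level in iSPCH (adjusted p = 3.65e-07 and 8.05e-06), and 1.58 and 1.68 times in WT (adjusted p = 0.000167 and 4.39e-05).

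JAZ7 had very few reads in untreated seedlings of either line. It is a small repressor that binds TOPLESS directly and has been tied to dark-induced leaf senescence. Its raw reads in iSPCH were 0 and 3 at 0 h, 36 and 24 at 6 h and 26 and 23 at 8 h; in WT they were 2, then 25 and 30, then 40 and 31. Normalised, it was at 28.4 and 33.6 in iSPCH at 6 h and 27.6 and 26.5 at 8 h, against 23.7 and 30.2 in WT at 6 h and 34.9 and 35.1 at 8 h. The ratio of normalised reads to 0 h was 20.9 in iSPCH at 6 h (95% exact counting interval 6.83 to 104) and 18.8 at 8 h (6.05 to 94.1). In WT it was 17.4 at 6 h (4.60 to 147) and 22.7 at 8 h (6.06 to 191). These intervals cover counting error only. JAZ7 reached 1 CPM in 7 libraries, all of them treated, so a test against 0 h was tied to how it was chosen and these ratios are given with no test. The lines did not differ detectably in JAZ7 at this depth (8 h log2 -0.36 ± 0.52, adjusted p = 0.749).

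JAZ9 rose to 1.55 times its 0 h level in iSPCH at 6 h (adjusted p = 2.61e-05) and stood at 1.02 times at 8 h (adjusted p = 0.846). In WT it rose to 1.69 times at 6 h and 1.71 times at 8 h (adjusted p = 4.40e-05 and 3.11e-05). JAZ10 rose to 2.92 and 5.23 times its 0 h level in iSPCH (adjusted p = 8.72e-06 and 6.95e-08), while in WT it stood at 1.0 and 1.18 times (adjusted p = 0.989 and 0.420). JAZ4 fell in iSPCH to 0.759 of its 0 h level at 6 h (adjusted p = 0.0172) and, by 8 h, to 0.535 (adjusted p = 2.67e-05), and in WT stood at 0.777 (adjusted p = 0.0718) and 0.999 (adjusted p = 0.995). The JAZ4 call at 6 h in iSPCH was lost in 6 of 22 alternatives, among them without iSPCH library 0 h A (adjusted p = 0.0629), 0 h B (0.0619) or 6 h A (0.0780), and WT at 6 h was called without WT library 6 h B (0.0357). JAZ6 rose in iSPCH at 8 h, to 1.2 times (adjusted p = 0.0427), a call lost in 10 of 22 alternatives, in 6 of them by leaving out 1 library (iSPCH 0 h B, adjusted p = 0.30; iSPCH 8 h A, 0.243; either WT library of 6 h or of 8 h, 0.0502 to 0.0509). Without iSPCH library 0 h A, JAZ6 was also called at 6 h (adjusted p = 0.0496).

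**Figure D4:**
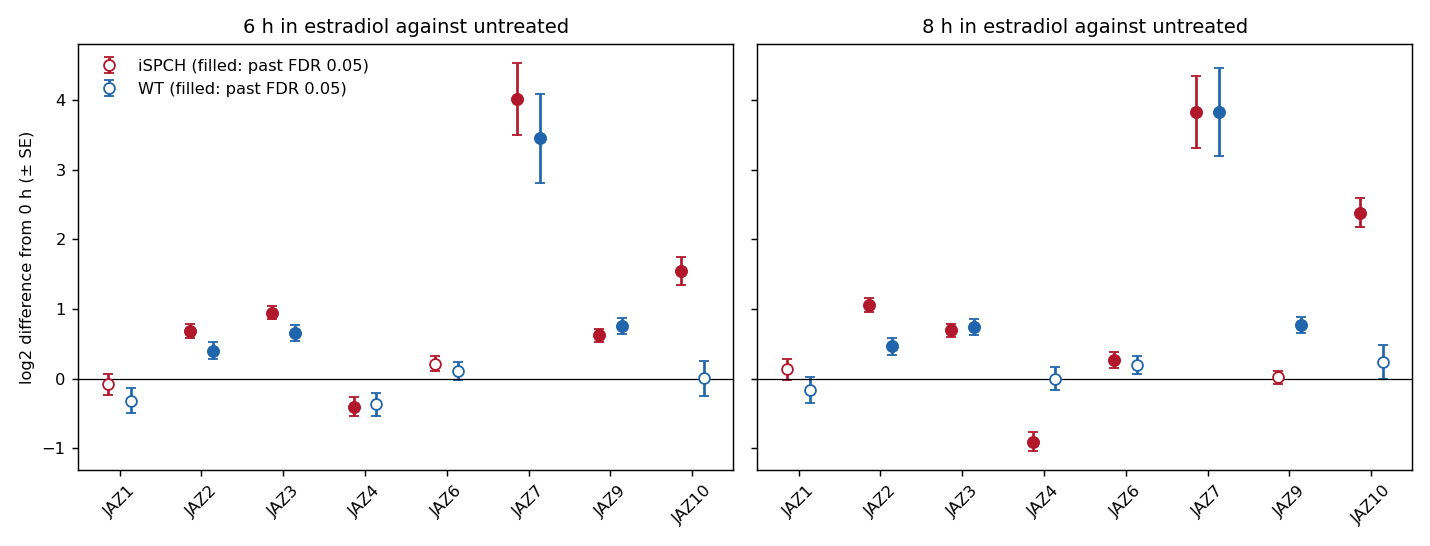
Log2 difference from 0 h (points, with SE bars) at 6 h (left) and 8 h (right), iSPCH (red) left of WT (blue), for 8 JAZ genes; filled points passed FDR 0.05, which for JAZ7 is no test, since it passed the filter only through treated libraries. The lines lie close together for JAZ3 and JAZ7 and apart for JAZ10 (2.39 in iSPCH and 0.24 in WT at 8 h), JAZ4 (-0.90 and -0.001) and JAZ9 (0.02 and 0.77).

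Whether the lines changed unequally was tested as the difference of the line differences between times. From 0 h to 6 h, 1 of 9 members was called, JAZ10 (background 0.718%, with 0.234% higher), with a difference of log2 1.54 ± 0.32 (adjusted p = 0.0395). That call was lost in 13 of 19 alternatives, in 9 of them by leaving out 1 library: iSPCH 0 h A (adjusted p = 0.116), iSPCH 6 h A or B (0.0570 and 0.0547), iSPCH 8 h A or B (0.0579 and 0.0584), WT 6 h A or B (0.159 and 0.107) and WT 8 h A or B (0.0588 and 0.0586). From 0 h to 8 h, 3 of 9 were called (background 3.26%, with 1.78% higher and 1.49% lower): JAZ10 at log2 2.14 ± 0.32 (adjusted p = 0.00200), JAZ9 at -0.75 ± 0.15 (adjusted p = 0.0105) and JAZ4 at -0.90 ± 0.21 (adjusted p = 0.0319). The JAZ4 call was lost with DESeq2 (adjusted p = 0.0999), without the filter (0.0513) and without any single library of iSPCH 0 h (adjusted p = 0.0829 and 0.0842 without A and B), iSPCH 8 h (0.0502 and 0.0791) or WT 8 h (0.0638 and 0.0928). JAZ2 stood at 0.59 ± 0.16 (adjusted p = 0.0518) and was called in 7 of 21 alternatives, with edgeR (0.0448), library size scaling (0.0382), TMM scaling (0.0470) or a mean CPM of at least 5 (0.0484), without iSPCH library 6 h A (0.0424) or 6 h B (0.0431), and without both libraries that hold the shared reads around JAZ8 (0.0420). All of these share the single untreated WT library.

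Between 6 h and 8 h, iSPCH called 4 of 9 members (background 7.50%, with 3.97% higher and 3.53% lower) and WT called 0 of 9 (background 0.413%), where 1 of 9 had an unadjusted limma p under 0.05 and edgeR and DESeq2 called 0. In iSPCH, JAZ10 rose further, to 1.79 times its 6 h level (adjusted p = 0.0205), and JAZ2 to 1.29 times (adjusted p = 0.0323). JAZ9 fell to 0.657 of it (adjusted p = 0.000895) and JAZ4 to 0.706 (adjusted p = 0.0336). The JAZ9 call was kept in every alternative. The JAZ10 and JAZ4 calls were lost without any 1 of the 4 iSPCH libraries of these times (adjusted p 0.0573 to 0.121 for JAZ10 and 0.0644 to 0.210 for JAZ4), and the JAZ2 call without iSPCH library 6 h A (0.135), 6 h B (0.0615) or 8 h B (0.258).

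The line difference itself moved between 6 h and 8 h for 2 of 9 members (background 1.12%, with 0.229% lower), JAZ4 by log2 -0.87 ± 0.19 (adjusted p = 0.0400) and JAZ9 by -0.62 ± 0.13 (adjusted p = 0.0308). The JAZ4 call was lost in 12 alternatives and the JAZ9 call in 9. Among these, adjusted p was 0.0613 to 0.222 for JAZ4 without any 1 of iSPCH 0 h A, iSPCH 0 h B, iSPCH 6 h B, iSPCH 8 h A, iSPCH 8 h B, WT 6 h A, WT 8 h A or WT 8 h B. For JAZ9 it was 0.0509 to 0.148 without any 1 of iSPCH 0 h A, iSPCH 0 h B, iSPCH 6 h A, iSPCH 6 h B, iSPCH 8 h B, WT 6 h A, WT 6 h B or WT 8 h B.

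Markers of root and shoot moved in the same comparisons. Of the 5 root markers, 3 fell in iSPCH relative to WT at 8 h (background 5.90%; 2 of them with DESeq2), the root hair gene COBL9 most (log2 -3.95 ± 0.33, adjusted p = 4.69e-06), and their summed level was 1200 to 1230 normalised reads in iSPCH against 1627 to 1629 in WT. At 6 h the sums were 1444 to 1744 in iSPCH against 1789 to 1824 in WT, and at 0 h 2077 to 2205 against 2240. No root marker was at 0 in any group. Of the 5 shoot markers, 1 rose (the stomatal receptor gene TMM) and 1 fell at 8 h (background 4.75% higher and 5.90% lower). The 5 summed to 6819 to 7110 in iSPCH against 4046 to 4149 in WT. TMM carried that sum: the other 4 summed to 3242 to 3253 in iSPCH against 3779 to 3936 in WT at 8 h, and the median log2 difference of the 5 was -0.17. Their part in the JAZ differences was not tested.

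Levels of the members were set in order per kb of merged exons. JAZ9 stood first, with no overlap with JAZ2, in every group except iSPCH at 8 h. In untreated WT, JAZ9 stood first at 405 normalised reads per kb, followed by JAZ2 (187), JAZ6 (159), JAZ1 (125), JAZ4 and JAZ3 (108 each), JAZ10 (20.9), JAZ5 (4.48) and JAZ7 (1.87), with JAZ8 at 0 reads; with 1 library, no spread can be given for these. At 8 h, JAZ2 was at 445 ± 36.9 per kb and JAZ9 at 425 ± 43.4 in iSPCH (SD, n = 2 each), and their libraries overlapped. In WT at 8 h, JAZ9 was at 693 ± 77.6 and JAZ2 at 258 ± 13.9, with no overlap.

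Below these, iSPCH at 8 h had JAZ6 at 176 ± 13.9 per kb, JAZ3 at 158 ± 1.30, JAZ1 at 123 ± 12.7, JAZ10 at 82.3 ± 4.36 and JAZ4 at 60.2 ± 4.75, none of these overlapping its neighbour, then JAZ7 at 32.9 ± 0.923, JAZ8 at 19.8 ± 28.0 and JAZ5 at 3.43 ± 1.2, of which JAZ8 overlapped both JAZ7 and JAZ5. WT at 8 h had JAZ6 at 182 ± 7.26 and JAZ3 at 181 ± 7.90, which overlapped, JAZ1 at 112 ± 1.17 and JAZ4 at 108 ± 5.06, which overlapped too, JAZ7 at 42.6 ± 0.187, JAZ10 at 24.8 ± 0.451, JAZ5 at 3.26 ± 1.84 and JAZ8 at 0.542 ± 0.766. At 8 h JAZ10 stood above JAZ4 and JAZ7 per kb in iSPCH and below both in WT. Its place below JAZ7 in WT rests on the length of merged exons. That was 2215 bases for JAZ10, merged over 7 transcripts, and 823 bases for JAZ7. Before division by length, JAZ10 had 54.8 normalised reads in WT at 8 h and JAZ7 had 35.0.

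Profiles of the members were compared across the 11 libraries. JAZ2 and JAZ10 were most like each other (Pearson r = 0.942 over 11 libraries), as were JAZ3 and JAZ7 (0.964), while JAZ4 was least like JAZ2 (-0.861). JAZ9 and JAZ6 were each most like JAZ3 (0.766 and 0.679). JAZ4 had no close counterpart in the family (highest r = 0.128, with JAZ9). JAZ1 was most like JAZ8 (0.536), a value that rests on the shared reads described above. These libraries share their treatment times and normalisation, so the values describe profiles and are not tests.

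Outside the family, the genes with profiles most like the mean of the 9 tested members, among 17304 candidates with a mean CPM of at least 2, were AT2G37110 (r = 0.960), AT5G04520 (0.952), AT1G07030 and AT3G46280 (0.951 each), SPO11-2 (AT1G63990, 0.945) and the calmodulin gene CAM6 (AT5G21274, 0.945). Without JAZ8, a choice made after its values were seen, they were AAK6 (AT5G60340, 0.992), AT1G19380 (0.991), AT3G13224 (0.987), ERF6 (AT4G17490, 0.987), AT1G50740 (0.986) and DRM2 (AT5G14620, 0.986). The 2 lists share no gene. Each member's log2 values were centred on their own mean and not scaled, so members with large changes weigh most. The first list thus leans on JAZ8, with its shared reads. Both lean on JAZ7, which passed the filter only through treated libraries.

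The rest of the jasmonate pathway is described by 7 lists of 73 genes. Among the other JAZ and TIFY genes, 5 of 6 were tested. Of these, 1 was lower at 6 h and at 8 h, TIFY8 (log2 -0.56 ± 0.09, limma adjusted p = 0.00347, and -0.50 ± 0.09, adjusted p = 0.00266). Over all tested genes, 4.68% were called at 6 h and 10.7% at 8 h in either direction. The median of the 5 at 8 h was 0.03, beside -0.03 over all tested genes. The medians of the other lists at 8 h were -0.04 for the receptor and repressor partners, 0.08 for the transcription factors, 0.05 for synthesis, 0.09 for turnover, -0.27 for outputs and 0.19 for touch and wound genes. JAZ12 rose from 0 h in both lines at 8 h (log2 0.99 in iSPCH and 0.79 in WT) and stood at 0.09 ± 0.08 between them. PPD2, a repressor of leaf meristemoid division, rose by 1.35 and 1.78. TIFY8 fell over the same time, from a mean of 1846 to 507 normalised reads in iSPCH and from 2073 to 718 in WT. Of the 5 tested, 3 were higher and 1 lower than at 0 h in each line at 8 h. Of the pathway genes given here, TIFY8, JAZ12, COI1, ASK2, TPL, MYC2, JAM3, JR1 and WRKY33 overlap antisense genes, with the same limit as JAZ10.

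Of the receptor and repressor partners, all 8 were tested (COI1, ASK1, ASK2, CUL1, NINJA, TPL, MED25 and JAV1), and none was called between the lines at 6 h or 8 h by limma, edgeR or DESeq2, with 1 and 0 at an unadjusted limma p under 0.05. Against 0 h at 8 h, all 8 rose in iSPCH (background 34.8% higher) and 7 of 8 in WT (background 31.2%), JAV1, a repressor of jasmonate defence, standing at log2 1.05 ± 0.24 in iSPCH and 0.40 ± 0.30 in WT (adjusted p = 0.264).

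Of the transcription factors, 6 of 8 were tested, and 2 were called at 8 h. JAM2 and JAM3, basic helix-loop-helix factors that counteract MYC2, were higher in iSPCH at 8 h (log2 0.47 ± 0.11, adjusted p = 0.0149, and 0.38 ± 0.11, adjusted p = 0.0429), and JAM2 also at 6 h (0.44, adjusted p = 0.0374), where 4.75% of all tested genes were higher at 8 h and 1.15% at 6 h. DESeq2 called neither JAM3 at 8 h (adjusted p = 0.0823) nor JAM2 at 6 h (0.109). Of 22 alternatives, 8 lost the JAM3 call at 8 h, 2 the JAM2 call at 8 h and 6 the JAM2 call at 6 h. MYC2 stood at -0.11 ± 0.09 at 8 h (adjusted p = 0.556) and rose from 0 h in both lines, by 0.97 in iSPCH and 1.02 in WT. MYC3 stood at 0.07 ± 0.08.

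In jasmonate synthesis, 17 of 18 genes were tested, and at 8 h 1 was higher and 1 lower, a share near the background of 10.7%. AOC1, an allene oxide cyclase, was higher (log2 0.81 ± 0.17, limma adjusted p = 0.00517). AOS, the allene oxide synthase one step before it, was lower (-0.51 ± 0.10, adjusted p = 0.00378). AOS was also lower at 6 h (-0.37, adjusted p = 0.0486), a call not made by edgeR (0.0536) or DESeq2 (0.0896). Of 22 alternatives, 14 lost that 6 h call, and 2 lost the 8 h call of AOC1 or of AOS. The lipoxygenase gene LOX3 stood at 0.69 ± 0.31 (adjusted p = 0.192) and ACX5, of beta-oxidation, at -0.20 ± 0.09 (adjusted p = 0.206). Relative to 0 h, limma called 8 of the 17 higher and 5 lower in iSPCH at 8 h (background 34.8% and 33.5%). In WT at 8 h it called 6 higher and 7 lower (background 31.2% and 29.8%).

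In turnover, 8 of 11 genes were tested. Limma called 2 at 6 h (background 4.68%) and 1 at 8 h, a share near the background of 10.7%. ILL6, an amidohydrolase that splits jasmonoyl-isoleucine, was lower in iSPCH at 6 h (log2 -0.42 ± 0.10, adjusted p = 0.0305) and 8 h (-0.67 ± 0.10, adjusted p = 0.000558). IAR3, an enzyme of the same kind, was higher at 6 h (0.30 ± 0.08, adjusted p = 0.0415) and stood at 0.20 at 8 h (adjusted p = 0.125). DESeq2 called neither at 6 h (adjusted p = 0.0931 for ILL6 and 0.103 for IAR3). The 6 h calls were lost in 7 of 22 alternatives for ILL6 and in 12 of 22 for IAR3. The ILL6 call at 8 h was lost in 0 of 22. CYP94C1, which oxidises the hormone, and ST2A, a sulfotransferase, stood at 0.60 ± 0.28 and 0.35 ± 0.17 at 8 h (adjusted p = 0.223 and 0.224).

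Of 12 genes known as outputs of the response, 6 passed the filter, and limma, edgeR and DESeq2 called none between the lines at 6 h or 8 h (0 and 2 at an unadjusted limma p under 0.05). VSP2, a storage protein gene used as a jasmonate marker, stood at log2 -0.84 ± 0.34 at 8 h (adjusted p = 0.148). ORA59 stood at -0.56 ± 0.27 (adjusted p = 0.225), JR1 at 0.34 ± 0.13 (adjusted p = 0.126) and NAC055 at -0.11 ± 0.18 (adjusted p = 0.794). Relative to 0 h, limma called 2 of the 6 higher and 2 lower in each line at 8 h. The median log2 change was -0.13 in iSPCH and -0.74 in WT.

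Among 10 rapid touch and wound genes, 8 were tested and 3 were higher in iSPCH at 8 h (background 4.75%), the zinc finger genes ZAT10 (log2 1.2 ± 0.26, adjusted p = 0.00722) and ZAT12 (0.88 ± 0.19, adjusted p = 0.00676) and WRKY33 (0.50 ± 0.13, adjusted p = 0.0283). The ZAT12 and WRKY33 calls were each lost in 3 of 22 alternatives, and the ZAT10 call in 3 of 21. TCH4, a xyloglucan endotransglucosylase gene induced by touch, stood at -0.30 ± 0.12 (adjusted p = 0.15). None was called at 6 h by limma or edgeR, DESeq2 called 1, and 2 had an unadjusted limma p under 0.05. Against 0 h at 8 h, 7 rose and 1 fell in each line (background 34.8% higher and 33.5% lower in iSPCH, 31.2% higher and 29.8% lower in WT), with median log2 changes of 2.05 in iSPCH and 1.48 in WT beside 0.02 and -0.001 over all tested genes. The summed level of the 10 genes was 16222 to 17801 normalised reads in iSPCH at 8 h against 17303 to 20814 in WT, and 2006 to 2499 in untreated iSPCH against 1902 in untreated WT. At 8 h TCH4 carried much of that sum, at 8598 and 8593 in iSPCH and 11530 and 9745 in WT. The sum therefore does not show the 3 called genes, which were higher in iSPCH. The part of the 10 genes in the JAZ changes from 0 h was not tested.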

How the data were processed

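The authors deposited 1 table with a signal value per gene and group, the group mean of normalised read counts over 6 columns (0 columns of per-sample values were not used). CASAVA 1.8, TopHat, DESeq and the TAIR10 genome are named in the submitters' processing notes; as to the counting tool, its gene models and the use of strand, these were not given in the sources used here. Per the labels' protocols, RNA was extracted with RNeasy columns and DNaseI for TruSeq poly-A libraries.

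A mean over 2 libraries equals the reads of each library times a constant of that library, and the single WT library at 0 h has 1 such constant. Solving for whole numbers, to the 10 significant digits deposited, gave the reads per library for 33457 genes. For 145 abundant genes (highest group mean of 11805 or more, 33.4% of reads) several solutions exist, so they were not tested; 0 genes had none. No JAZ gene is among the 145. For the library totals, a value with several solutions was split as evenly as possible, in normalised reads, between the 2 libraries. The CPM filter and the scaling by library size rest on these totals. The design had named this fit for the case that whole reads could be recovered.

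Normalised reads are reads over the size factor that these constants give. Their log2, after adding 1, was fitted with limma 3.58.1 in R 4.3.3 (limma-trend, robust variance, 1 coefficient per group, all 11 libraries, CPM of at least 1 in at least 2 libraries, 19633 genes, 12 comparisons, Benjamini-Hochberg FDR of 0.05 per comparison). A fold change is on the log2(value + 1) scale, which understates changes of low genes. The single WT library at 0 h takes its spread from the other groups. Recovery and fit were tested on simulated data, where false calls made up a larger share of the calls than the nominal FDR and the smallest changes put in were often missed. edgeR 4.0.16 and DESeq2 1.42.0 on the recovered reads were alternatives. Exon lengths and promoters are from RefSeq TAIR10.1 (the promoter of 1 member is not reported here), to which 32835 of 33602 identifiers matched. BLAST+ 2.17.0 found no copy of a listed gene's exons at 95% identity or more over 100 bases.

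The members and the lists were chosen with earlier results of these data known. Named were all members, up to 4 genes per pathway list with the smallest p between lines at 8 h, and the 6 genes most like the mean profile of the tested members.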

Additional observations from a re-analysis of the deposited data

Results flagged for a closer look

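The change over time differed between the lines for 3 JAZ genes, by the test of the difference itself in limma. Relative to WT, JAZ10 moved in iSPCH by log2 1.54 from 0 h to 6 h and by 2.14 from 0 h to 8 h. JAZ9 moved by -0.75 from 0 h to 8 h and by -0.62 from 6 h to 8 h. JAZ4 moved by -0.90 and by -0.87 over the same intervals. The JAZ10 call from 0 h to 8 h was kept in all 20 alternatives in which it was tested and that of JAZ9 in all 21, whereas the JAZ10 call from 0 h to 6 h was lost in 13 of 19, the JAZ4 calls in 8 of 21 from 0 h to 8 h and in 12 of 22 from 6 h to 8 h, and the JAZ9 call from 6 h to 8 h in 9 of 22. JAZ10 was higher in 2 of 2 iSPCH libraries than in every WT library at 6 h and at 8 h. JAZ4 and JAZ9 were lower in 2 of 2 iSPCH libraries than in both WT libraries at 8 h. With 2 libraries a group, such a lack of overlap describes the values and is no further test.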

How the results depend on the processing

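Of 22 alternatives, 0 turned the direction of a called change. The number of JAZ genes called at 0 h, at 8 h between the lines, in each line against 0 h, in WT at 8 h against 6 h and for the line difference from 0 h to 8 h stayed within 1.5 times the reported count. Between the lines at 6 h the count of 2 was 1 with a mean CPM of at least 5, which removes JAZ10 from the test, and 0 to 2 when 1 library was left out. For iSPCH at 8 h against 6 h, the count of 4 was 2 without the filter, with DESeq2 or with only the groups compared, 1 without both libraries that hold the shared reads around JAZ8 (an alternative chosen after seeing the data), and 1 to 4 when 1 library was left out. For the line difference from 0 h to 6 h, the count of 1 was 0 without the filter, with a mean CPM of at least 5, with DESeq2 (which gave JAZ10 no adjusted p), without robust variance, with only the groups compared and without both of those libraries, and 0 to 1 when 1 library was left out. From 6 h to 8 h, the count of 2 was 0 without the filter, 1 with DESeq2, with only the groups compared or without both of those libraries, and 0 to 2 when 1 library was left out. The cause was not tested.

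Over all genes, the 918 calls at 6 h were 538 with only the groups compared, 1598 without both of those libraries and 227 to 1391 when 1 library was left out, and the 2091 calls at 8 h were 1107 to 2506. The 18 calls at 0 h ranged to 88. Calls between 6 h and 8 h ranged over 718 to 1602 in iSPCH (1472 reported) and 5 to 215 in WT (81), and for the line differences over 41 to 334 (141), 344 to 952 (641) and 106 to 317 (220). Scaling by library size moved the median gene by 0.11 at 6 h and 0.09 at 8 h, and the calls to 717 higher and 426 lower at 6 h, against 226 and 692, and to 1722 and 637 at 8 h, against 932 and 1159. The 8 h differences ranged over 1.65 to 1.84 for JAZ10, 0.70 to 0.90 for JAZ2, -0.92 to -0.72 for JAZ4 and -0.82 to -0.58 for JAZ9. Where a group is left with 1 library, that library was assumed to vary like the others. With the lowest count of the stretch taken off, JAZ8 kept 3 and 1 reads. Depth limits JAZ5, JAZ7 and JAZ8, with at most 13, 40 and 89 reads. No paired analysis was possible because the deposited columns are group means, and the libraries recovered from them carry no replicate number.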
